A study of Mus musculus with 5 samples.

Results

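The genes described here encode the actin cytoskeleton and its contractile machinery: actins, tropomyosins, calponins and transgelins, nonmuscle myosin II, crosslinkers and adhesion proteins, and the transcription factor SRF. They are a list of 34 gene symbols, all 34 of which were found among the 23951 genes of the deposited table. RNA was sequenced in 5 libraries, each the only one of its group, from mouse epiblast stem cells derived from embryonic stem cells (EpiSCs) and from mouse embryonic stem cells of the E14 line (ESCs). The EpiSCs, a culture model of the primed state of pluripotency, were untreated or treated with bone morphogenetic protein 4 (BMP-4, 10 ng/ml) for 1.5 h or for 24 h. All 3 EpiSC groups grew in N2B27 medium that held FGF2 (12 ng/ml) and Activin A (20 ng/ml), on plates with a serum coat, and were split as clumps. The ESCs, a model of the naive state, grew either with leukaemia inhibitory factor (LIF) and BMP-4 (10 ng/ml) in basal medium, or on gelatin with LIF (1000 U/ml) and 15% fetal bovine serum; β-mercaptoethanol was in the media of both cell types. The labels name no separate cultures or clones, so a difference between groups below is a difference between single libraries and no p-value is given. Cell state, medium and coating differ together between EpiSCs and ESCs and cannot be told apart.

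Actin polymerizes from a monomer pool held by profilin and turned over by cofilin, and tropomyosins run along the filament and set which myosins and crosslinkers may bind it. Nonmuscle myosin II pulls on these filaments once its regulatory light chains are phosphorylated, and vinculin, talin and zyxin tie the filaments to adhesions. Many genes of this machinery carry CArG boxes, the binding sequence of serum response factor (SRF), whose partners of the MRTF family are released when monomeric actin runs low, so the filament state feeds back on the genes that build it.

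Levels are FPKM, sequenced fragments scaled to the length of the transcript and the size of the library, and a range in parentheses after a level is the confidence interval deposited with it. A difference is one of log2(FPKM + 1) and a fold the ratio of FPKM + 1, so that both understate a change in a gene of low level. "Higher" and "lower" in a count mean at least 2-fold on that scale. Counts use the 31 members that averaged 1 FPKM or more across libraries. Acta2, Actg2 and Mylk averaged less. Of the 31, Acta1, Cnn1, Tagln and Myl9 stood under 1 FPKM in both ESC libraries and passed through their EpiSC values, so they had to differ and the filter sets part of the counts. Depth, estimated from the value of single reads in low genes, ran from about 8440000 reads for ESCs in LIF and serum to about 13300000 reads for the 24 h EpiSCs. Markers went with the labels of the cell types: 7 of 7 naive genes were lower in untreated EpiSCs than in either ESC library, and 5 of 5 primed genes were higher.

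Part of the contractile genes separated the cell types. Against each ESC library taken singly, 15 of the 31 members stayed within 2-fold in untreated EpiSCs, but not the same 15 genes in both comparisons. In bulk RNA, fewer cells of a type and less RNA per cell cannot be told apart. In untreated EpiSCs 14 of the 31 members were higher than in ESCs in LIF and serum, where 11.6% of all genes compared were higher, and 2 were lower (9.55% of all genes). Against ESCs in LIF and BMP-4 the counts were again 14 higher (11% of all genes) and 2 lower (10% of all genes). The members' median difference was 0.61 against LIF and serum and 0.82 against LIF and BMP-4, beside medians of -0.01 and 0.00 over all genes. With intervals apart as well, 7 members were higher and 1 lower than in LIF and serum (2.68% and 2.84% of all genes), and 7 higher and 1 lower than in LIF and BMP-4 (2.39% and 3.11% of all genes). Both comparisons share the untreated EpiSC library. The higher genes were those for Tpm1, Tpm4, Zyx, Vcl, Pdlim7, Cald1, Cnn1, Cnn2, Tagln, Myl9, Myh10, Acta1 and Srf in both comparisons, with Tpm2 only against LIF and serum and Actg1 only against LIF and BMP-4; Tpm2 and Actg1 stood 1.59-fold and 1.53-fold higher in the other comparison.

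**Figure D1:**
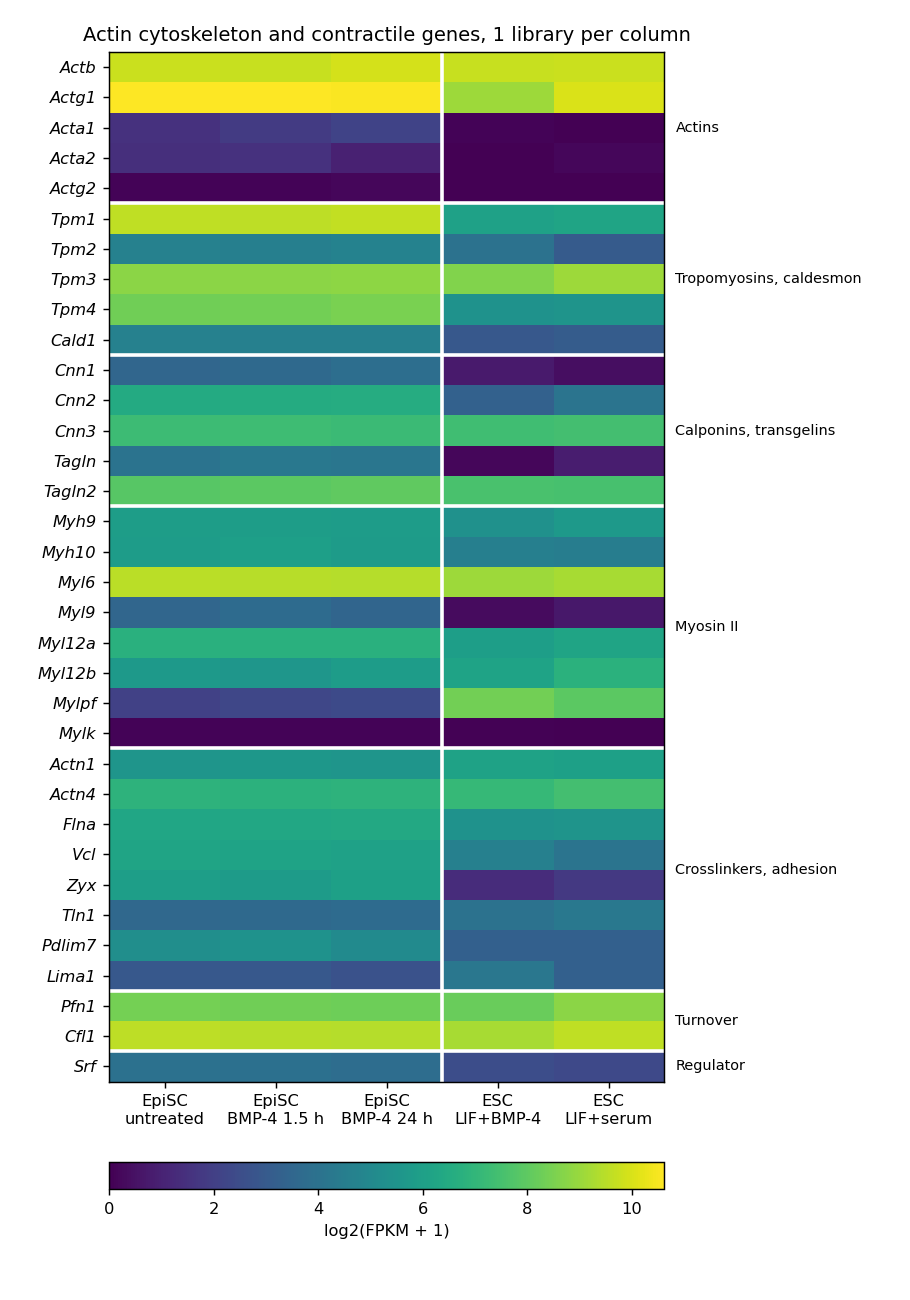
Level of each of the 34 members as log2(FPKM + 1), in colour, with 1 column per library (3 EpiSC libraries left, 2 ESC libraries right) and rows grouped by role. Most rows keep 1 colour across the EpiSC columns; Tpm1, Tpm4, Cnn2 and Zyx are darker in both ESC columns and Mylpf is brighter there.

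With all 5 libraries in view, 13 of the 31 members stood at least 2-fold above both ESC libraries in each of the 3 EpiSC libraries, a pattern shown by 7.21% of all genes compared. Mylpf alone of the 31 stood at least 2-fold below in each, as 6.62% of all genes did. For Tpm1, Tpm4, Cnn1, Cnn2, Vcl and Zyx every EpiSC interval also lay above both ESC intervals, which held for 1.44% of all genes, and for Mylpf every EpiSC interval lay below them (2.08% of all genes). At any size of difference, the EpiSC values lay above both ESC values for 20 of the 31 members (34.9% of all genes), lay below for 7 (35.7% of all genes), and overlapped for 4, namely Actb, Tpm3, Pfn1 and Cfl1. As a share of summed FPKM the 34 members made up 1.22%, 1.20% and 1.23% in untreated, 1.5 h and 24 h EpiSCs, against 0.747% in ESCs with LIF and BMP-4 and 0.88% in ESCs with LIF and serum.

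**Figure D2:**
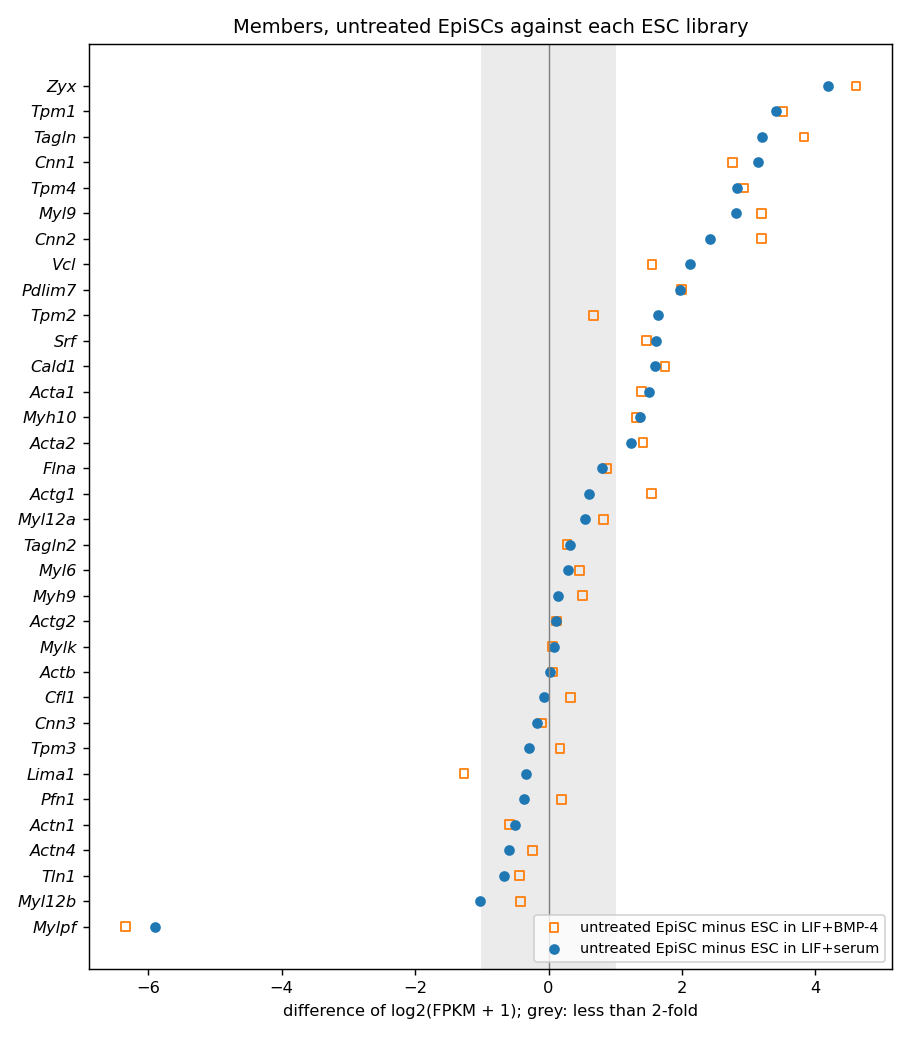
Difference of log2(FPKM + 1) for each member between untreated EpiSCs and ESCs in LIF and serum (filled circles) or in LIF and BMP-4 (open squares), ordered by the first; the grey band marks less than 2-fold. Zyx lies highest, at 4.20 and 4.61, and Mylpf lowest, at -5.91 and -6.34.

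Srf itself was higher in EpiSCs. It stood at 14.7 FPKM (5.63 to 23.7), 14.2 and 12.9 FPKM in untreated, 1.5 h and 24 h EpiSCs, against 4.66 FPKM in ESCs with LIF and BMP-4 and 4.11 (0.718 to 7.5) in ESCs with LIF and serum. The 3 EpiSC values lay apart from the 2 ESC values, while the intervals of the untreated EpiSCs overlapped with those of both ESC libraries. The difference was 1.62 against LIF and serum and 1.47 against LIF and BMP-4. Of its cofactor genes 0 of the 5 compared were higher or lower in either comparison; with 11.6% of all genes higher and 9.55% lower against LIF and serum, 0 of 5 is near the background. Mkl1 (MRTF-A) stood at 2.82, 2.71 and 2.86 FPKM in the EpiSC libraries, against 2.61 and 2.51 FPKM in the ESC libraries. The cofactor of smooth muscle, Myocd, stood at or under 0.106 FPKM in EpiSCs and was listed at 0 in both ESC libraries.

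The CArG box was searched in RefSeq promoter windows of the GRCm38.p6 build, from 250 bases before to 50 after each gene's start. Only exact matches to its consensus were taken, which is CC, a fixed run of A or T bases, and GG. This consensus is the same read from either strand. A box was found for 8 of the 31 members with a window (25.8%), against 488 of 27025 genes (1.81%). The members were chosen from a machinery known for such boxes and include Srf itself. The higher share is thus at least partly set by that choice, and it was not tested. Actb, Actg2 and Tagln have no window in the table used. The stretches around the boxes are printed because they show the sequence that SRF is known to bind beside the genes whose levels follow. They run 5′ to 3′ on the gene's strand and end before the start, and capitals mark the box.
Srf, chr17:46556190-46556269, minus strand: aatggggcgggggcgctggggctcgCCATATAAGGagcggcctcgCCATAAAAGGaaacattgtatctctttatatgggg
Acta1, chr8:123894814-123894873, minus strand: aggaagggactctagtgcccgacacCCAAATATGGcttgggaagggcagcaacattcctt
Actg1, chr11:120348551-120348610, minus strand: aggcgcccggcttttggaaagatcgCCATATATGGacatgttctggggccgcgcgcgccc
Cnn2, chr10:79988519-79988578, plus strand: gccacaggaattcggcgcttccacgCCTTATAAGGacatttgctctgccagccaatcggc
Myl9, chr2:156775278-156775337, plus strand: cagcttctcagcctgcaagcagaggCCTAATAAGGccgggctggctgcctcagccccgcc
Vcl, chr14:20929148-20929205, plus strand: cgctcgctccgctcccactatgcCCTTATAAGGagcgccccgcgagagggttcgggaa
Myl6, chr10:128493025-128493084, minus strand: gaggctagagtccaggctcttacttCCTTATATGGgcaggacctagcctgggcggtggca
Lima1, chr15:99820162-99820221, minus strand: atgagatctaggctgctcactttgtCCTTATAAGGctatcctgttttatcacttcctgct

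Srf held 2 boxes in its window, which begin 82 and 62 bases before the start, and the other 7 genes held 1 each. Cnn2, Vcl and Lima1 carried the same 10 bases in their boxes. Of these genes Cnn2 and Vcl stood at least 2-fold above both ESC libraries in each EpiSC library, while Lima1 was lower in EpiSCs than in ESCs with LIF and BMP-4. Of the 8 genes with a box, 5 (Acta1, Cnn2, Myl9, Vcl and Srf) were at least 2-fold above both ESC libraries in each EpiSC library (7.21% of all genes compared). The same held for 7 of the 23 members with a window but no box: Cnn1, Tpm1, Tpm4, Myh10, Zyx, Cald1 and Pdlim7. Those 23 include Acta2 and Mylk, which were not compared. Acta1, Myl9 and Cnn1 passed the filter through their EpiSC values and had to differ. Whether the box goes with the level was not tested. A match is a run of letters and no measured binding, and a window without one leaves other sites of the gene unread. A box with a mismatch inside the window was counted as no box.

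The cytoplasmic actins, Actb and Actg1, made up nearly all actin FPKM, and they differed from each other between the cell types. Actb (mm9 chromosome 5, 143664795 to 143668403) stood at 886, 851 and 969 FPKM in untreated, 1.5 h and 24 h EpiSCs, against 849 FPKM in ESCs with LIF and BMP-4 and 869 in ESCs with LIF and serum, so that the cell types overlapped. Actg1 (chromosome 11, 120207004 to 120209798) stood at 1579 FPKM (1057 to 2100), 1564 and 1528 FPKM in these EpiSCs, against 540.0 (336 to 744) in ESCs with LIF and BMP-4 and 1033 (672 to 1394) in ESCs with LIF and serum. All 3 EpiSC values lay above both ESC values, and the interval of untreated EpiSCs was apart from that of the LIF and BMP-4 library and overlapped with that of the serum library. The ratio of Actg1 to Actb was 1.78, 1.84 and 1.58 in the EpiSC libraries, against 0.636 with LIF and BMP-4 and 1.19 with LIF and serum in ESCs. Parts of both messages occur in other genes and processed copies: 46.8% of the 36-base words of Actg1 and 25.3% of those of Actb were found in other GENCODE M21 genes, so their levels are uncertain where the counting could split such reads.

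The muscle actins were close to 0 in ESCs and low in EpiSCs. Acta1, the actin of skeletal muscle, stood at 1.85, 2.64 and 3.42 FPKM in the EpiSC libraries, against 0.0812 FPKM in ESCs with LIF and BMP-4, and it was listed at 0 in ESCs with LIF and serum. Acta2, the actin of smooth muscle, stood at 1.67, 1.88 and 0.994 FPKM in EpiSCs, while it was listed at 0 with LIF and BMP-4 and stood at 0.138 FPKM with LIF and serum in ESCs. Actg2, the enteric smooth muscle actin, stayed at or under 0.125 FPKM in EpiSCs and was listed at 0 in both ESC libraries. In these 3 genes every EpiSC interval reached down to 0. Together the 3 muscle actins held under 1% of actin FPKM in every library; Acta1 reached 0.137% in the 24 h EpiSCs.

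Tropomyosins, the proteins that coat the filament, differed in make-up between the cell types. Tpm1 (chromosome 9, 66870400 to 66897020) stood at 773 FPKM (456 to 1089), 765 (463 to 1067) and 804 (492 to 1117) in untreated, 1.5 h and 24 h EpiSCs, against 66.7 (27.4 to 106) in ESCs with LIF and BMP-4 and 71.9 (28.2 to 115) in ESCs with LIF and serum. Tpm4, a cytoskeletal tropomyosin gene (chromosome 8, 74659191 to 74677028), stood at 322 FPKM (192 to 451), 331 and 360 FPKM in EpiSCs, against 41.5 (17.5 to 65.5) and 44.6 (19.2 to 70.0) in ESCs with BMP-4 and with serum. For Tpm1 and Tpm4 the EpiSC and ESC values were far apart and neither the ESC medium nor BMP-4 in EpiSCs moved them by 2-fold; untreated EpiSCs were 10.6-fold and 7.08-fold higher than ESCs with LIF and serum. Tpm3 stood at 443, 433 and 452 FPKM in EpiSCs, against 394 and 542 FPKM in the ESC libraries, so its ranges overlapped. Tpm2 was lowest, at 24.6, 22.8 and 25.0 FPKM in EpiSCs, against 15.1 with BMP-4 and 7.17 with serum in ESCs.

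The summed tropomyosin FPKM was 1562, 1552 and 1641 in EpiSCs, against 517 in ESCs with LIF and BMP-4 and 666 in ESCs with LIF and serum. Tpm1 made up 49.5%, 49.3% and 49.0% of that sum in EpiSCs, against 12.9% and 10.8% in ESCs with BMP-4 and with serum. Tpm3 made up 28.4%, 27.9% and 27.5% in EpiSCs, against 76.1% and 81.4% in these ESCs. Of the 36-base words of Tpm3, 44.2% occur in its processed copy Tpm3-rs7, and 19.0% of those of Tpm4 occur in other genes, while Tpm1 shares 0.0408%. Cald1, which encodes the tropomyosin-binding protein caldesmon, stood at 24.3, 23.6 and 24.0 FPKM in EpiSCs, against 6.56 and 7.43 FPKM in ESCs with BMP-4 and with serum, with overlapping intervals.

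**Figure D3:**
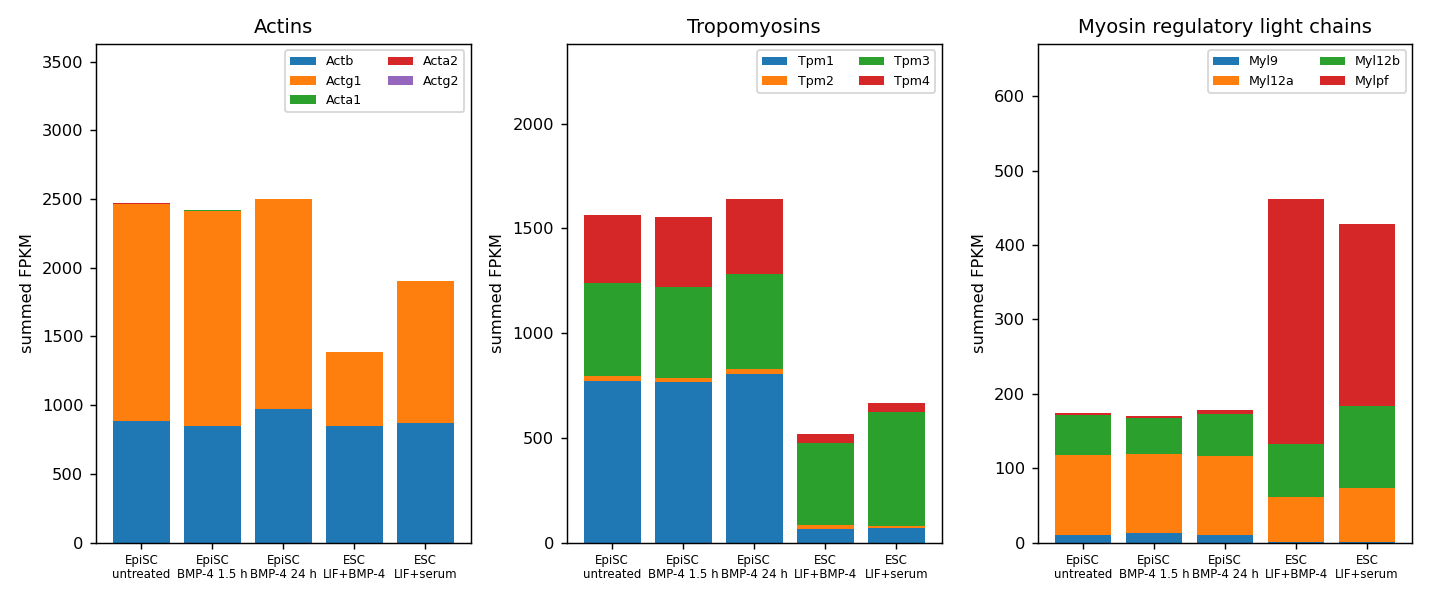
Summed FPKM of the actins, the tropomyosins and the regulatory light chains of myosin in each library (bars, 1 library each, split by gene). The tropomyosin bars are 1552 to 1641 in EpiSCs and 517 to 666 in ESCs and hold mostly Tpm3 in ESCs; the light chain bars of ESCs hold mostly Mylpf.

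Calponins and transgelins, actin-binding proteins with a calponin homology domain, split by member. Cnn2 (chromosome 10, 79451345 to 79458145), the calponin of nonmuscle cells, stood at 89.6 FPKM (43.4 to 136), 92.5 and 95.9 FPKM in EpiSCs, against 8.93 (1.11 to 16.8) in ESCs with LIF and BMP-4 and 16.0 (4.16 to 27.8) in ESCs with LIF and serum. Cnn1, the calponin of smooth muscle, stood at 10.5 FPKM (2.14 to 18.8), 11.4 and 13.4 FPKM in EpiSCs, against 0.697 (0 to 1.73) and 0.305 (0 to 0.959) in these ESCs. Both were far higher in every EpiSC library with intervals apart. Cnn3 stood at 154, 160 and 148 FPKM in EpiSCs, against 165 and 173 FPKM in ESCs, and was the most abundant of the 3 in every library.

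Tagln (SM22, an early smooth muscle marker) stood at 15.3, 18.0 and 17.2 FPKM in EpiSCs, against 0.15 FPKM in ESCs with LIF and BMP-4 and 0.788 in ESCs with LIF and serum. The ranges were apart but the intervals were wide, from 0 to 30.8 in untreated EpiSCs, and overlapped. The Tagln locus in the file also spans Pcsk7 and Rnf214, and 51.5% of its 36-base words lie in other annotated genes, chiefly in the overlapping antisense RNA Gm48529. Rnf214 stood between 7.17 and 7.78 FPKM and Pcsk7 between 1.26 and 2.36 FPKM in all libraries. Tagln2, its relative of nonmuscle cells, stood at 232, 245 and 261 FPKM in EpiSCs, against 192 and 186 FPKM in ESCs, all within 2-fold.

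Nonmuscle myosin II heavy chains differed by isoform. Myh10, the IIB heavy chain (chromosome 11, 68505417 to 68630126), stood at 58.3 FPKM (33.6 to 83.0), 62.0 and 55.7 FPKM in EpiSCs, against 22.7 (11.4 to 33.95) with LIF and BMP-4 and 21.8 (10.9 to 32.8) with LIF and serum in ESCs. Its EpiSC values were apart from both ESC values, with intervals of untreated EpiSCs apart from the serum library and overlapping with the BMP-4 library. Myh9, the IIA heavy chain, stood at 58.6, 59.8 and 57.3 FPKM in EpiSCs, against 41.0 and 53.3 FPKM in ESCs, a difference within 2-fold. The ratio of Myh10 to Myh9 was 0.995, 1.04 and 0.972 in EpiSCs, against 0.554 with BMP-4 and 0.41 with serum in ESCs. The essential light chain gene Myl6 stood at 732, 723 and 700 FPKM in EpiSCs, against 530 and 596 FPKM in ESCs.

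The regulatory light chains, which carry the phosphorylation that switches myosin on, differed in make-up too. Myl9, the chain typical of smooth muscle, stood at 10.3 FPKM (0.322 to 20.3), 12.3 and 10.1 FPKM in EpiSCs, against 0.236 (0 to 0.785) and 0.621 (0 to 1.95) in ESCs with BMP-4 and with serum, with overlapping intervals. Myl12a stood at 108, 107 and 107 FPKM in EpiSCs, against 60.5 and 73.2 FPKM in ESCs, and its neighbour Myl12b at 53.1, 47.6 and 56.9 FPKM in EpiSCs, against 71.5 and 110 FPKM in ESCs. Myl12a thus exceeded Myl12b in EpiSCs (ratio 2.02, 2.25 and 1.87) and lay below it in ESCs (ratio 0.846 with BMP-4 and 0.666 with serum). These 2 genes share sequence, 19.8% of the words of Myl12a being found in Myl12b, so the split is uncertain. The lower call of Myl12b against LIF and serum, at 2.05-fold, was lost under either rescaling of the libraries.

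Mylpf, which encodes the regulatory light chain of fast skeletal muscle, was lower in EpiSCs, unlike Myl9. It (chromosome 7, 134355122 to 134357801) stood at 3.10 FPKM (0 to 7.47), 3.85 (0 to 9.09) and 4.30 (0 to 10.0) in untreated, 1.5 h and 24 h EpiSCs, against 330.1 (167 to 493) in ESCs with LIF and BMP-4 and 244 (116 to 373) in ESCs with LIF and serum. Every interval of the EpiSCs lay below those of the ESCs, and untreated EpiSCs were 80.8-fold lower than the BMP-4 library and 59.9-fold lower than the serum library. It held 71.4% and 57.1% of regulatory light chain FPKM in ESCs with BMP-4 and with serum, and at most 2.42% in EpiSCs. Its words are not shared with any other gene. The gene Sept1, which encodes a septin, lies 154 bases beyond the end of Mylpf in the file and on the opposite strand in GENCODE, so that the pair converge. Sept1 stood at 2.04, 1.82 and 1.78 FPKM in EpiSCs, against 205 and 240.3 FPKM in ESCs with BMP-4 and with serum. The libraries were directional, but the sources used here do not say whether the counting used strand, and the part of Sept1 in the Mylpf level was not tested.

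**Figure D4:**
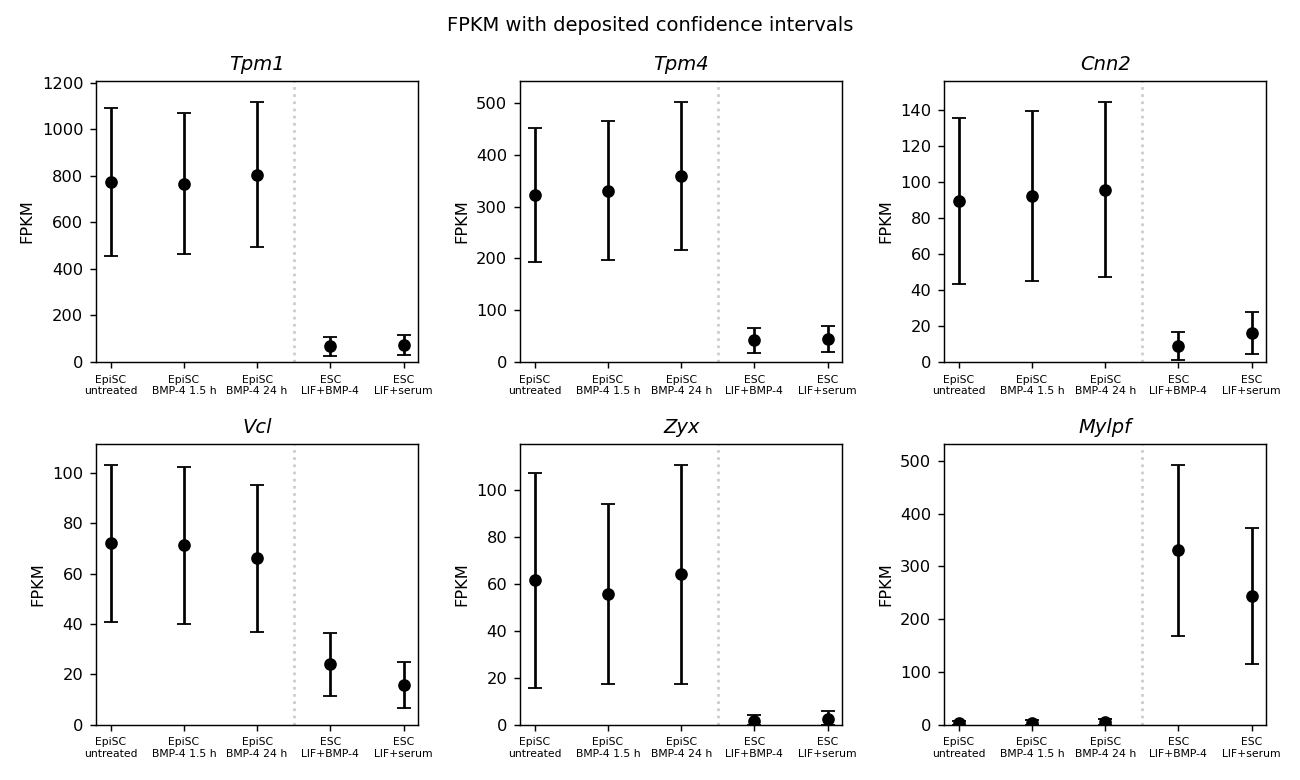
FPKM (points) with the deposited confidence interval (bars) of Tpm1, Tpm4, Cnn2, Vcl, Zyx and Mylpf in each library, on linear axes from 0. The EpiSC intervals lie above both ESC intervals in the first 5 genes and below both for Mylpf; for Vcl the lowest EpiSC bound, 36.9, lies next to the highest ESC bound, 36.6.

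Mylk, the myosin light chain kinase, was near 0 throughout, at 0.0663 to 0.0865 FPKM in EpiSCs and 0.0286 to 0.0408 FPKM in ESCs.

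Of the adhesion and crosslinking genes, Zyx, Vcl and Pdlim7 stood at least 2-fold higher in untreated EpiSCs than in either ESC library. Zyx, the gene of the stress fibre and adhesion protein zyxin (chromosome 6, 42299827 to 42330557), stood at 61.4 FPKM (15.5 to 107), 55.5 and 64.0 FPKM in EpiSCs, against 1.56 (0 to 4.04) with BMP-4 and 2.40 (0 to 5.96) with serum in ESCs. It was 24.4-fold and 18.3-fold higher in untreated EpiSCs than in these ESCs. The span of the receptor gene Epha1, which lies on the opposite strand in GENCODE, overlaps that of Zyx in the file. Epha1 stood at 54.9, 48.7 and 67.9 FPKM in EpiSCs, against 0.877 and 0.992 FPKM in ESCs. Of the Zyx words, 3.84% are shared with Epha1, and the part of Epha1 in the Zyx level was not tested.

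Vcl, the gene of vinculin (chromosome 14, 21748655 to 21852895), stood at 72.0 FPKM (40.6 to 103), 71.3 and 66.1 FPKM in EpiSCs, against 23.9 (11.3 to 36.6) with BMP-4 and 15.8 (6.65 to 24.9) with serum in ESCs. Of its words 38.4% are shared with Ap3m1 on the opposite strand, and Ap3m1 stood between 10.0 and 11.6 FPKM in all 5 libraries. Pdlim7, a PDZ and LIM protein of actin filaments, stood at 36.7, 41.2 and 33.0 FPKM in EpiSCs, against 8.45 and 8.59 FPKM in ESCs, apart in value but with overlapping intervals. Flna, the gene of the crosslinker filamin A, stood at 77.7, 81.9 and 83.0 FPKM in EpiSCs, against 42.2 and 44.4 FPKM in ESCs, a 1.82-fold and 1.73-fold difference for untreated EpiSCs.

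Other members of the adhesion group stood lower in EpiSCs. Tln1, the gene of talin, the integrin activator, stood at 10.97, 11.5 and 12.3 FPKM in EpiSCs, against 15.2 and 18.1 FPKM in ESCs. The alpha-actinin genes Actn1 (45.7, 48.6 and 45.0 FPKM in EpiSCs, against 69.1 and 64.9 FPKM in ESCs) and Actn4 (116, 113 and 117 FPKM in EpiSCs, against 137 and 175 FPKM in ESCs) were likewise below both ESC values, all within 2-fold and with overlapping intervals. Lima1, which encodes the LIM protein EPLIN that stabilizes filaments, stood at 6.66, 6.52 and 5.41 FPKM in EpiSCs, against 17.5 (7.005 to 27.9) with BMP-4 and 8.68 (2.72 to 14.6) with serum in ESCs. Its ranges were apart, and the fold depended on the ESC library, at 2.41-fold lower against BMP-4 and 1.26-fold lower against serum.

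Profilin and cofilin, which supply and renew actin monomers, were within 2-fold between the cell types. Pfn1 (profilin) stood at 336, 321 and 309 FPKM in EpiSCs, against 293 with BMP-4 and 434 with serum in ESCs. Cfl1 (cofilin) stood at 751, 719 and 693 FPKM in EpiSCs, against 600.1 and 790 FPKM in these ESCs. For both the EpiSC values lay between the 2 ESC values.

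**Figure D5:**
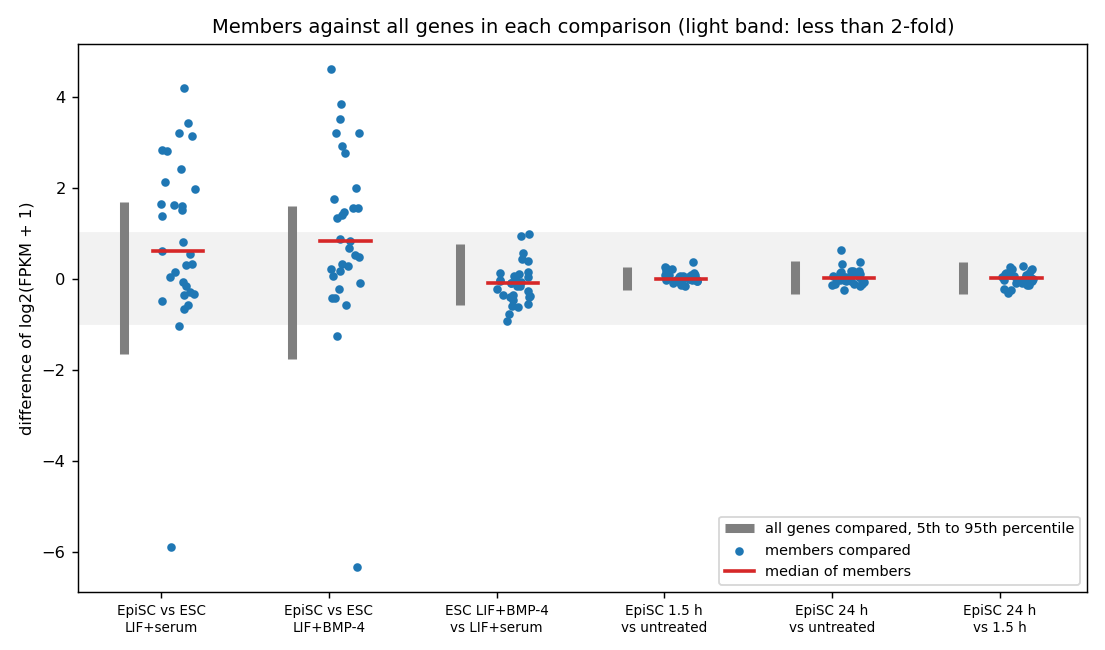
Difference of log2(FPKM + 1) of the 31 members compared (points) with their median (red line) in each of 6 comparisons, beside the 5th to 95th percentile of all genes compared (grey bar); horizontal jitter only separates points. The members spread widely between EpiSCs and ESCs and lie inside the 2-fold band in the other 4 comparisons.

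ESCs in LIF and BMP-4 were then set against ESCs in LIF and serum, a pair that differs in the medium as well as in BMP-4. No member was higher or lower (0 of 31, beside 2.61% and 1.28% of all genes), with a median of -0.11 beside -0.02 over all genes. Against such small shares a count of 0 among 31 is near the background. The nearest to 2-fold were Tpm2 (15.1 and 7.17 FPKM, 1.97-fold higher with BMP-4), Lima1 (17.5 and 8.68 FPKM, 1.91-fold higher) and Actg1 (540.0 and 1033 FPKM, 1.91-fold lower), all with overlapping intervals. Rescaling the libraries put Tpm2 past 2-fold. Srf stood at 4.66 FPKM with BMP-4 and 4.11 FPKM with serum.

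BMP-4 given to EpiSCs left the members within 2-fold at both times. After 1.5 h, relative to untreated EpiSCs, 0 of 31 were higher and 0 were lower (0.236% and 0.182% of all genes), with differences from -0.16 to 0.36 and a median of -0.01. After 24 h the counts were again 0 and 0 (0.654% and 0.527% of all genes), with differences from -0.26 to 0.64 and a median of 0.01. With so few of all genes past 2-fold, a count of 0 among 31 is near the background. Between 24 h and 1.5 h 0 were higher and 0 lower (0.609% and 0.427% of all genes). Over the 3 EpiSC libraries the highest value was a median of 1.10 times the lowest. Acta1 had the widest span among the members compared, 1.85 times, at 1.85, 2.64 and 3.42 FPKM in untreated, 1.5 h and 24 h EpiSCs with overlapping intervals.

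Listed genes beyond the members were compared between untreated EpiSCs and ESCs with LIF and serum, where the background is 11.6% of all genes higher and 9.55% lower. Of 12 other SRF and MRTF targets 9 were compared, and 4 were higher and 1 lower (median 0.97). Fhl2, among the 4, stood under 1 FPKM in both ESC libraries and passed the filter through its EpiSC values, so it had to differ. Cyr61 and Ctgf, matricellular protein genes, stood at 37.3, 36.9 and 41.5 FPKM and at 39.2, 42.8 and 49.9 FPKM in EpiSCs, against 1.25 and 3.64 FPKM and 3.63 and 4.55 FPKM in ESCs with BMP-4 and with serum. Csrp2, a LIM protein gene, was the lower one, at 80.5, 85.7 and 83.5 FPKM in EpiSCs, against 256 and 228 FPKM in ESCs. Of 29 genes of filament turnover, capping and bundling 8 were higher and 3 lower (median 0.33), the lower count being near that background. Among the 8 was a gene under 1 FPKM in both ESC libraries, which likewise had to differ. Pls3, the bundling protein plastin 3, stood at 88.0, 87.7 and 78.8 FPKM in EpiSCs, against 15.9 and 4.63 FPKM in ESCs. Tmsb4x, the monomer-binding thymosin beta-4, stood at 262, 245 and 247 FPKM in EpiSCs, against 1022 and 953 FPKM in ESCs, and Enah, a filament elongation factor, at 11.9, 12.9 and 12.7 FPKM, against 50.6 and 48.6 FPKM.

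Nucleation genes of the Arp2/3, WAVE and formin groups were mostly within 2-fold, with 3 of 23 higher (Spire1, Arpc5 and Wasf1) and 0 lower (median 0.14), and the higher count is near the 11.6% of all genes. Of 14 focal adhesion genes 2 were higher, Parva and Ilk, and 2 lower, Tns3 and Tln2 (median 0.23), both counts near the 11.6% and 9.55% of all genes. Parva stood under 1 FPKM in both ESC libraries, so it too had to differ. Tns3, a tensin gene, stood at 2.78, 2.55 and 2.71 FPKM in EpiSCs, against 45.1 and 42.1 FPKM in ESCs with BMP-4 and with serum. Ilk, the integrin-linked pseudokinase, stood at 56.5, 56.9 and 56.8 FPKM in EpiSCs, against 23.2 and 24.6 FPKM in ESCs.

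Markers of cells that use these genes for contraction were mostly low. Of 6 smooth muscle markers outside the members, 4 were under 1 FPKM in every library, among them Myh11, the smooth muscle heavy chain (at most 0.0882 FPKM in EpiSCs and 0.102 in ESCs), and their sum was 13.5 to 14.4 FPKM in EpiSCs and 13.98 to 15.3 FPKM in ESCs, most of it Smtn. Of 24 striated muscle markers 14 were under 1 FPKM in every library, and their sum was 16.3 to 16.4 FPKM in EpiSCs and 17.5 to 30.8 FPKM in ESCs. Of 12 fibroblast and stroma markers 9 were under 1 FPKM in every library, with Dcn listed at 0 in all 5, and the others were Twist1, Thy1 and Pdgfra. Their sum was 27.2 to 29.2 FPKM in EpiSCs and 5.41 to 6.68 FPKM in ESCs, and Twist1 accounted for 20.9 to 21.6 FPKM in EpiSCs and 1.53 to 1.99 FPKM in ESCs. That sum moved with the contractile genes, and most of the 9 markers under 1 FPKM also stood higher in every EpiSC library than in both ESC libraries. The part of these markers' cells in the result was not tested.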

How the data were processed

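Poly(A) RNA was made into directional libraries, per the labels' protocols. The deposited FPKM values and their lower and upper bounds, 1 set per gene and library, come from the authors, who name TopHat, Cufflinks (2.0.13), Picard, SAMtools and mm9, per the submitters' processing notes. Neither the annotation and filters nor the scaling between libraries could be taken from the sources used here. Positions are spans from the file, written from 1. In 8 genes, none of them members, a status other than OK removed the gene from comparisons with that library.

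Differences of log2(FPKM + 1) were taken with pandas 2.3.3 for 6 comparisons over genes averaging 1 FPKM or more, which kept 31 of the 34 members. The functions were tested on simulated data. Sequence shared between genes was counted as 36-base words of GENCODE M21 transcripts, on both strands. Depth was estimated from the most frequent value of 1 read in low genes with 1 long transcript, so it is approximate. All 158 listed genes were found, 3 by an older symbol, and 1 list is not reported here. Members could all be named; of other lists up to 4 higher and 4 lower genes by size of difference, and all of lists of 7 or fewer. Neighbouring genes were read after the members' values were seen. Members and lists were chosen with earlier results of these data known. Each group held 1 library, so there is no test, and the deposited intervals are not a spread between cultures. Alternatives were another pseudocount, other filters on low values, and rescaling by median ratios or by the upper quartile.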

Additional observations from a re-analysis of the deposited data

How the results depend on the processing

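Of 95 values recomputed under 5 alternatives for 19 results, 89 stayed close to the reported value (a count within 1.5 times, a median within 0.25 on the log2 scale) and 6 moved. All 6 concern counts of 0 to 2 members. A reversal was looked for only in medians of at least 1 in size, and no reported median was that large, so none could be found. Medians close to 0 could change sign, as for 1.5 h against untreated EpiSCs, from -0.007 to 0.005 on rescaling to the same upper quartile. With a pseudocount of 0.1 FPKM, 1 member (Tpm2) was higher and 2 (Tagln and Myl9) lower in ESCs with LIF and BMP-4 than with LIF and serum, where the reported counts are 0. Rescaling by median ratios and rescaling to the same upper quartile each gave 1 higher member in that comparison, again Tpm2, and each left 1 lower member, Mylpf, in untreated EpiSCs against LIF and serum, where 2 were reported. Tpm2 and Myl12b lay next to 2-fold as reported, at 0.98 and -1.03 on the log2 scale. Tagln (0.15 and 0.788 FPKM with BMP-4 and with serum) and Myl9 (0.236 and 0.621 FPKM) stood under 1 FPKM in both ESC libraries. At such levels the added 1 FPKM shrinks a ratio. Without a filter on low values Acta2 joined the higher members against both ESC libraries, giving 15 of 34, and a minimum average of 5 FPKM took Acta1 out, giving 13 of 30. The width of the deposited intervals limits what can be said of Tagln, Myl9, Acta1 and Pdlim7. Rescaling to the same upper quartile moved the median of all genes between untreated EpiSCs and ESCs in LIF and serum to 0.09, against -0.01 as deposited. No paired analysis was possible because there was 1 library per group.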

Other observations

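The genes around Mylpf were read after its values had been seen. Within 50 kb of it the table holds 7 other genes. Sept1, its convergent neighbour, stood at 2.04, 1.82 and 1.78 FPKM in untreated, 1.5 h and 24 h EpiSCs, against 205 and 240.3 FPKM in ESCs with LIF and BMP-4 and with LIF and serum. On the other side Tbc1d10b, a GTPase-activating protein gene, stood at 10.98, 11.6 and 12.97 FPKM in EpiSCs, against 20.4 and 15.0 FPKM in ESCs, and Cd2bp2 at 32.8, 32.4 and 33.6 FPKM, against 34.2 and 44.8 FPKM. The difference of the size seen in Mylpf thus occurred in Sept1 and not in Tbc1d10b, Cd2bp2, Gm4532, Zfp553, Zfp771 or Dctpp1.

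Among the striated muscle markers outside the members that averaged 1 FPKM or more, 2 light chain genes also stood higher in ESCs. Myl7, the atrial regulatory chain, was listed at 0 in all EpiSC libraries and stood at 9.77 FPKM in ESCs with LIF and BMP-4 and 1.99 with LIF and serum. Myl4, an atrial and embryonic essential chain, stood at 0.279, 0.374 and 0.41 FPKM in EpiSCs, against 6.44 and 3.38 FPKM in ESCs. Light chain genes of the list with a lower average went both ways. Actc1, the cardiac actin, went the other way, at 1.91, 2.63 and 2.98 FPKM in EpiSCs, while it was listed at 0 in both ESC libraries. Tnnt3, a fast skeletal troponin, stood at 2.89, 1.99 and 3.46 FPKM in EpiSCs, against 0.131 FPKM in ESCs with BMP-4, and was listed at 0 with serum. Myl7, Myl4, Actc1 and Tnnt3 each stood under 1 FPKM in every library of a cell type. They passed the filter through the other cell type, so they had to differ.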
